A study of Mus musculus with 3 samples.

Results

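Cells caught in the division cycle were examined in day 7 fracture callus of 9-week-old female C3H/HeJ mice, an inbred strain of high bone density. The femur had been pinned along the marrow cavity and broken at midshaft, and an injection was given under the skin every day. The PTH mice received the hormone fragment PTH 1-34 at 100 µg/kg, the YKL mice received YKL-05-099, an inhibitor of the salt-inducible kinases, at 15 mg/kg, and the Control mice received the vehicle PBS. The cells were chosen by their measured RNA: a cell counted as cycling when its unique molecular identifiers (UMIs, each marking 1 captured RNA molecule) for Mki67, Top2a, Cenpf and Birc5 summed to at least 5. Of 5463 kept cells, 197 were cycling: 81 of 1913 in the PTH library, 22 of 606 in the YKL library and 94 of 2944 in the Control library. Each group is a single library, and how many animals went into a library is unknown from the sources at hand. Treatment and library therefore cannot be told apart, no test between groups was possible, and each 95% interval covers counting error only.

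During S phase a cell copies its DNA, with help from the helicase that was loaded at replication origins and from the enzymes that make nucleotides. In G2 and M phase it builds the spindle, attaches chromosomes to it through kinetochores and divides, and most of the RNAs for these steps are made only at that time. In a healing fracture, cartilage grows from dividing immature chondrocytes, which leave the cycle before they enlarge into hypertrophic cells. Vessel cells, osteoclast precursors, granulocyte precursors and fibroblast-like cells can divide in the same tissue.

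The 4 genes that chose the cells encode a protein that coats mitotic chromosomes (Mki67), the topoisomerase that untangles DNA (Top2a), a kinetochore protein (Cenpf) and survivin of the chromosomal passenger complex (Birc5). Their promoters are shown because many genes of G2 and M share short sequence elements just before their start. The windows run from 250 bases before to 50 bases after the start and come from RefSeq on GRCm38.p6. Mki67 is at chr7:135716330-135716629 on the minus strand, Top2a at chr11:99024140-99024439 on the minus strand, Cenpf at chr1:189688037-189688336 on the minus strand and Birc5 at chr11:117848987-117849286 on the plus strand. With them stand the first 2 genes with a promoter entry among those highest in cycling relative to other chondrocytes. These are Hmmr, a spindle protein, at chr11:40733388-40733687 on the minus strand, and Prc1, which bundles microtubules between the separating chromosomes, at chr7:80294201-80294500 on the plus strand. Capitals mark the cell cycle homology region (CHR, searched as TTTGAA or TTCGAA) and the CCAAT box, each on either strand, and every sequence reads 5′ to 3′ on the gene's own strand.
Mki67: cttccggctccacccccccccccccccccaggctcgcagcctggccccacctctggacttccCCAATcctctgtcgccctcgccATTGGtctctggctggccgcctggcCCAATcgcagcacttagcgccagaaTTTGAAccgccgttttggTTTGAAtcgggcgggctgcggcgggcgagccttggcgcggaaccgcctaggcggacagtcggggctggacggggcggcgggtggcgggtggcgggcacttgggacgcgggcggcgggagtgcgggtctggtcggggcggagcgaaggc
Top2a: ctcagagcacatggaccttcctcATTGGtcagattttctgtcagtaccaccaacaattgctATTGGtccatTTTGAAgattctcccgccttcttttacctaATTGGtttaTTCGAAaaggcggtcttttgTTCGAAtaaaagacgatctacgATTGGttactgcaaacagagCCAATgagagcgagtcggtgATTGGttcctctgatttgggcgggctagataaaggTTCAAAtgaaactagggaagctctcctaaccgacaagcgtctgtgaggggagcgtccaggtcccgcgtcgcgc
Cenpf: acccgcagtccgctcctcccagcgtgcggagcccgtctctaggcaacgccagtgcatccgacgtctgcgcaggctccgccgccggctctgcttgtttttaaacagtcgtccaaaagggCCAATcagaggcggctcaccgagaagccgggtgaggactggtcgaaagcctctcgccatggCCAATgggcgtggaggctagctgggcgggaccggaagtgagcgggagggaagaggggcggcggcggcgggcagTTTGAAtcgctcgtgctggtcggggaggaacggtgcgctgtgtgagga
Birc5: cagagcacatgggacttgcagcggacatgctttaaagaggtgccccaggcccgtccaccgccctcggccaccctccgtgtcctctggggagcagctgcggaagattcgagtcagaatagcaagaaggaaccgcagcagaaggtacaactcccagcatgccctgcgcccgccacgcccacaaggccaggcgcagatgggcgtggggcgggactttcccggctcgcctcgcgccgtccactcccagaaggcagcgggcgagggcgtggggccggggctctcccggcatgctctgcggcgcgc
Hmmr: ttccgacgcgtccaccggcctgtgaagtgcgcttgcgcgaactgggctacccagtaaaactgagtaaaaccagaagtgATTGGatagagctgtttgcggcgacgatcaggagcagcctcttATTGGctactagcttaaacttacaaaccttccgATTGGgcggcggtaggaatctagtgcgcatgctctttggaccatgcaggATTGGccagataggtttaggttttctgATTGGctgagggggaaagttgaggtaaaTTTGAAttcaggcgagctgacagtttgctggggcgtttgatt
Prc1: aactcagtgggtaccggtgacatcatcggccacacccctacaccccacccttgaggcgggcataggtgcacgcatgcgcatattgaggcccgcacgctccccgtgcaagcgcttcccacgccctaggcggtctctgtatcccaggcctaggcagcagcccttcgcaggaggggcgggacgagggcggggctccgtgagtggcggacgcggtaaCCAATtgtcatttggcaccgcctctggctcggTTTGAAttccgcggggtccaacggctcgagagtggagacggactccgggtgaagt

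Top2a carried 4 CHR and 6 CCAAT matches, the Mki67 window 2 and 3, and the Cenpf window 1 and 2. Hmmr had 1 CHR match 9 bases after the start and 5 CCAAT matches, and Prc1 had 1 of each. The Birc5 window held neither set of letters. Of 43 G2 and M genes with a promoter entry (the 4 choosing genes left out), 74.4% held a CHR match and 60.5% held both elements, against 19.4% and 7.7% of the 27025 promoters in the table. All 9 promoters of mitotic kinases and spindle motors held a CHR match. Among 31 S phase genes the CHR share was 16.1%, while 35.5% held an E2F element (searched as TTTGGCGC, TTTCCCGC or TTTCGCGC, on either strand), as did 63.6% of 11 origin licensing genes. The E2F share was 4.65% in the G2 and M genes and 1.91% over all promoters. CCAAT matches were in 76.7% of the G2 and M, 71% of the S phase and 37.9% of all promoters. A match describes letters and not a bound site.

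The libraries held 33981167 UMIs in 5286 barcodes (PTH), 19424073 in 1500 (YKL) and 55250651 in 8021 (Control). Barcodes with 500 or more genes seen, and no more than 10% of UMIs from mitochondrial genes, were kept. Cycling cells were deeper than the other kept cells, with medians of 20257, 30852 and 19112 UMIs in the PTH, YKL and Control libraries, against 11961, 25511 and 11546.5. Among cycling cells 2 in PTH, 0 in YKL and 2 in Control met 2 of the chondrocyte, endothelial and Tyrobp limits given below. Col1a1 was left out of this count, and all 20 cycling PTH and all 30 cycling Control chondrocytes held Col1a1 UMIs. Over 10% globin UMIs were found in 0, 0 and 5 cycling cells of PTH, YKL and Control. Marrow was avoided at dissection and the callus was digested with collagenase, so shares describe captured cells. PTH and Control shared 8 barcodes, YKL and Control 3, and YKL and PTH 2, and none of the shared barcodes was a cycling cell.

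The label was first checked against the choosing genes. Mki67, in CPM (the gene's UMIs as a share of all UMIs of the summed cells, times 1000000), was at 444 CPM in cycling and 1.24 CPM in other cells of the PTH library, 257 and 1 CPM in the YKL library, and 374 and 1.29 CPM in the Control library. Top2a stood at 663, 357 and 580 CPM in cycling cells of the PTH, YKL and Control libraries. These values follow from the choice of cells. Among the 197 cells, 138 (70.1%) had UMIs of all 4 genes, 38 of 3, 13 of 2 and 8 (4.06%) of a single gene. The sum per cell had a median of 26 UMIs in the PTH, 29.5 in the YKL and 23.5 in the Control library, with maxima of 246, 100 and 158.

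Just inside the threshold, at exactly 5 UMIs, were 7 PTH, 3 YKL and 4 Control cells. Just outside it, at 4 UMIs, were 4, 3 and 9 cells. G2 and M genes that the rule did not use summed to 2418.9 CPM in the 5-UMI and 1794.5 CPM in the 4-UMI cells of the PTH library, 4218.0 and 781 CPM in the YKL library, and 2495.0 and 1720.3 CPM in the Control library. Cells without any UMI of the 4 genes had 754, 980 and 770 CPM of the same list, and cells of 12 or more UMIs had 10094.3, 7188.7 and 10107.9 CPM. Both sides of the threshold lay between these groups, apart from the 4-UMI cells of YKL, and 65 of 81, 17 of 22 and 75 of 94 members had 12 UMIs or more. Of mature neutrophils, which no longer divide, 0 of 17 in the PTH, 0 of 10 in the YKL and 2 of 264 in the Control library met the rule, at median depths of 2006, 2557 and 2480 UMIs.

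The data go against the label for some of the 8 cells that met the rule through a single gene. In the YKL library they were 4 of 22, among them 2 of its 3 cycling chondrocytes. One of these held 17 Cenpf UMIs and none of the other genes, and the other held 7 Top2a UMIs beside 1412 UMIs of Col10a1, the collagen of hypertrophic cartilage. Their G2 and M sums were 2091.2 and 1403.1 CPM, against a median of 11021.5 CPM in the 138 cells with all 4 genes. The PTH and Control libraries each had 2 such cells, with sums from 713 to 3176.0 CPM, and a YKL cell of 1970 UMIs reached 14720.8 CPM. Some ratios of chondrocyte, Tyrobp and Col1a1 shares are given below with and without them, a split chosen after their values were seen. Other shares, makeups and levels below include them.

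Cells were assigned in order to the chondrocyte lineage (Col2a1 at least 1% of UMIs), the endothelial lineage (at least 3 UMIs of Pecam1 and Cdh5), the Tyrobp lineage (at least 3 UMIs of this signalling adaptor of myeloid and natural killer cells) and the Col1a1 lineage (at least 0.2% of UMIs, fibroblast-like, tendon and bone-forming cells). Every lineage had cycling members, in different numbers. Over the 3 libraries, 61 of 827 Tyrobp cells (7.38%), 36 of 536 endothelial cells (6.72%), 34 of 890 Col1a1 cells (3.82%) and 53 of 2679 chondrocytes (1.98%) were cycling, with 13 of 531 cells (2.45%) outside these lineages. Depth differs between lineages too, and its part in this order was not tested.

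In the PTH library 4.23% of kept cells were cycling (3.38 to 5.24), in the YKL library 3.63% (2.29 to 5.45) and in the Control library 3.19% (2.59 to 3.89). Under the reported settings these overall shares did not separate. The ratio of PTH to Control was 1.33 (0.973 to 1.8), of YKL to Control 1.14 (0.68 to 1.82) and of YKL to PTH 0.857 (0.509 to 1.39). In 4 of 17 alternatives the interval of PTH to Control left out 1, with ratios from 1.16 to 1.43 over all of them. The intervals of YKL to Control and of YKL to PTH each did so in 1. The lineages of the cycling cells follow, beside those of all kept cells. Of the 81 cycling cells of the PTH library, 37% were of the Col1a1 lineage, 24.7% chondrocytes, 21% endothelial and 16% Tyrobp cells. Among the 22 cycling YKL cells, 45.5% were Tyrobp cells, 22.7% endothelial, 13.6% chondrocytes and 4.55% Col1a1 cells. Of the 94 in the Control library, 40.4% were Tyrobp cells, 31.9% chondrocytes, 14.9% endothelial and 3.19% Col1a1 cells. Intervals were wide, such as 26.6 to 48.5% for PTH Col1a1 cells and 24.4 to 67.8% for YKL Tyrobp cells. Of all kept cells, Col1a1 cells made up 32.7% in PTH, 6.11% in YKL and 7.74% in Control. Tyrobp cells made up 6.48%, 7.43% and 22.4%, chondrocytes 36.5%, 64% and 54.1%, and endothelial cells 16%, 8.91% and 5.98%.

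**Figure D1:**
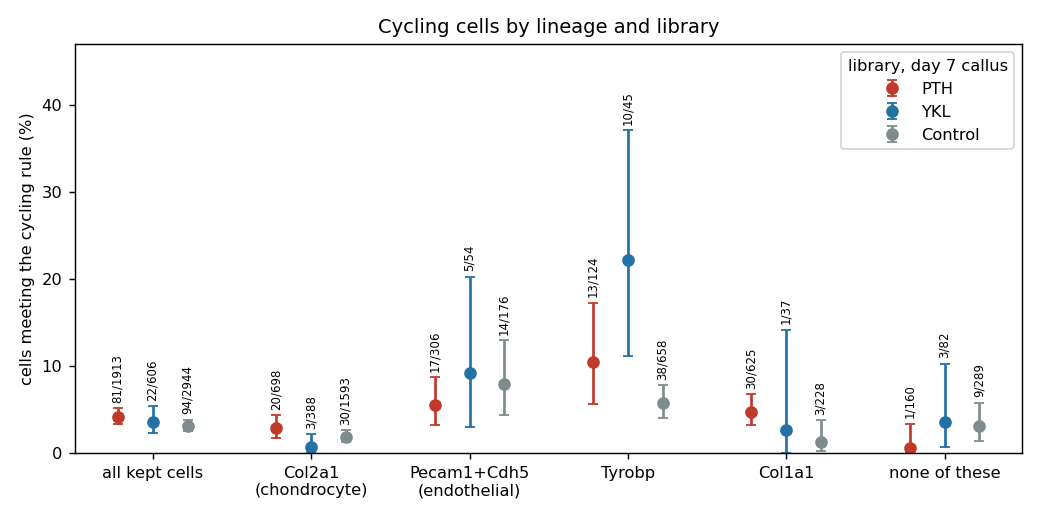
Share of kept cells that meet the cycling rule (percent, y axis) in all cells and in each lineage (x axis), with the PTH, YKL and Control libraries side by side; points are shares, bars exact 95% intervals for counting error, and the fractions give cycling over kept cells. Tyrobp cells of the YKL library reach 22.2%, and YKL chondrocytes are at 0.773%.

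The makeup of each library entered these numbers. If each lineage of the PTH library had divided at the Control rate, 57.9 cycling cells would have been found in place of 81, and the same sum for YKL gave 17.2 in place of 22. The PTH excess was largest in the Col1a1 cells, with 30 seen against 8.22 at the Control rate, and in chondrocytes, with 20 against 13.1. Endothelial cells of the PTH library numbered 17 cycling cells, against 24.3 at the Control rate.

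Of the 4 lineages, chondrocytes had the lowest share over the 3 libraries together, although in Control the Col1a1 share was lower. In the PTH library 20 of 698 were cycling (2.87%, 1.76 to 4.39), in the YKL library 3 of 388 (0.773%, 0.16 to 2.24) and in the Control library 30 of 1593 (1.88%, 1.27 to 2.68). The share in YKL was 0.27 times that in PTH (0.0513 to 0.91) and 0.411 times that in Control (0.0802 to 1.32), and the share in PTH was 1.52 times that in Control (0.819 to 2.77). Without the single-gene members 19 PTH, 1 YKL and 30 Control chondrocytes remained, and the ratios became 0.0947 (0.00228 to 0.596) for YKL to PTH and 0.137 (0.00335 to 0.823) for YKL to Control. The interval of YKL to PTH reached 1 when the rule asked for 3 UMIs or when the Col2a1 limit was 0.5% or 2%. Cells with at least 15 UMIs of the G2 and M list, an alternative rule, turned it to 1.91, but 300 of 388 YKL chondrocytes met that rule.

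In the PTH and Control libraries most cycling chondrocytes were high in an immature cartilage gene. Ucma, a secreted protein of immature cartilage, reached 1000 CPM in 14 of the 20 cycling PTH chondrocytes, 0 of 3 in YKL and 23 of 30 in Control. Of all chondrocytes above that level, 14 of 250 in the PTH library were cycling (5.6%, 3.1 to 9.22), 0 of 23 in the YKL library (up to 14.8%) and 23 of 673 in the Control library (3.42%, 2.18 to 5.08). Below it they were 6 of 448 (1.34%), 3 of 365 (0.822%) and 7 of 920 (0.761%). The YKL library held few cells at that Ucma level, 5.93% of its chondrocytes, against 35.8% in PTH and 42.2% in Control.

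By Col10a1 level the high cells did not separate from the rest. At 5000 CPM or more, 0 of 89 chondrocytes in the PTH, 1 of 131 in the YKL and 0 of 163 in the Control library were cycling. The exact intervals allow up to 4.06%, 4.18% and 2.24%, which take in the shares over all chondrocytes. Between 200 and 5000 CPM 3 of 171, 2 of 153 and 2 of 337 were cycling, and under 200 CPM 17 of 438, 0 of 104 and 28 of 1093. The YKL cell above 5000 CPM is the member that met the rule through Top2a alone. These levels were chosen after the values had been seen.

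**Figure D2:**
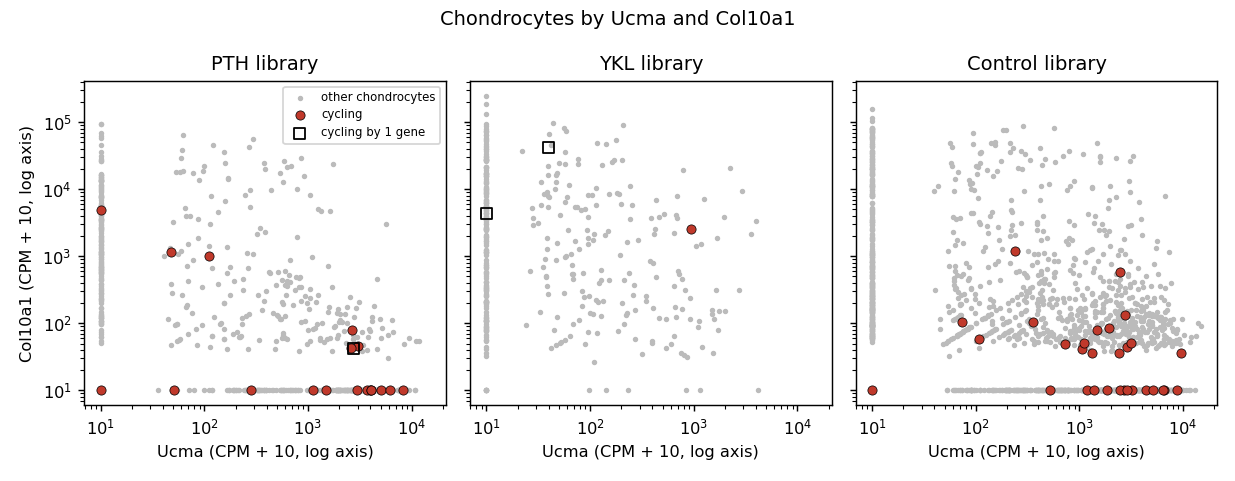
Ucma (x axis) and Col10a1 (y axis) of each chondrocyte, both as CPM plus 10 on log axes, in the PTH, YKL and Control libraries; grey points are other chondrocytes, red points cycling ones and open squares members with UMIs of only 1 of the 4 genes. Cycling cells of the PTH and Control libraries gather at the lower right, where Ucma is high and Col10a1 low.

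In cycling against other chondrocytes, Hmmr was at 292 and 0.16 CPM in the PTH library and at 270 and 0.3 CPM in the Control library. Its UMIs came from 17 of 20 and 26 of 30 cycling cells, and the ratios were 1832.2 (499 to 15257.6) and 897 (448 to 2103.2). Ccna2, the cyclin of S and G2, stood at 242 and 0.16 CPM (PTH) and 182 and 0.263 CPM (Control). The others among the 10 highest by the bound nearest to 1 were Pbk, Prc1, Ccnb1, Aurkb, Ckap2l, Aspm, Esco2 and Cenpe. All but Esco2, which joins sister chromatids in S phase, and Pbk, a mitotic kinase with broader roles, are spindle, kinetochore or mitotic entry genes. Aurkb, the kinase partner of survivin, had 55 UMIs in cycling and 0 in the 678 other PTH chondrocytes, at least 415-fold higher against a floor of 3 counts over the group.

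Cell cycle lists were counted next. In PTH chondrocytes 42 of 42 tested G2 and M genes and 27 of 30 S phase genes were higher by 1.5-fold or more, with median log2 ratios of 6.27 and 2.62. Over all 9591 tested genes 20.4% were higher and 21.6% lower (median log2 ratio -0.01). In Control chondrocytes the counts were 44 of 44 and 31 of 35, with medians of 5.90 and 2.41, where 22.6% of 10954 genes were higher and 16.1% lower (median 0.10). The rule chose cells for this program, and a gene near 0 elsewhere reached the minimum of 50 UMIs only through the cycling cells, so nothing is read from these counts.

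Smaller lists varied. Of cyclins and CDKs 7 of 10 tested members were higher and 1 lower in PTH, and 6 of 11 higher in Control. Of the E2F, DREAM and MMB regulators, which switch these genes on and off, 4 of 8 were higher and 1 lower in PTH, and 6 of 9 higher in Control. All tested members were higher in the origin licensing list (7 in PTH, 11 in Control), in nucleotide synthesis (6 in each) and in the kinetochore list (9 and 10). As with the lists above, nothing is read from these counts. Rrm2, the regulated subunit of ribonucleotide reductase, was at 291 and 2.15 CPM in cycling and other PTH chondrocytes and at 137 and 1.01 CPM in Control chondrocytes. Cdk1, the kinase that starts mitosis, was at 440 and 4.71 CPM in PTH and 276 and 7.43 CPM in Control. Pcna, the sliding clamp of the replication fork, differed less, at 152 and 33.9 CPM in PTH and 88.7 and 33.2 CPM in Control. Cdk4, which acts with D cyclins in G1, stood at 143 and 107 CPM and at 131 and 125 CPM, under 1.5-fold in both libraries.

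Inhibitors of cyclin-dependent kinases went both ways. Cdkn1a, the p21 inhibitor, was at 171 and 568 CPM in cycling and other chondrocytes of the PTH library, a ratio of 0.302 (0.244 to 0.37), and at 179 and 485 CPM in the Control library, 0.368 (0.312 to 0.431). Cdkn1c, the p57 inhibitor of chondrocytes that leave the cycle, was at 247 and 667 CPM and at 160 and 385 CPM, with ratios of 0.371 and 0.415. Per cell it went the other way in PTH, where the median Cdkn1c level was 177 CPM in cycling and 92.8 CPM in other cells, with UMIs in 85% and 62.8% of them. The sum of the other cells included levels up to 8152.6 CPM, against at most 976 CPM in cycling cells. In Control the medians were 35.1 and 71.2 CPM. Cdkn2c and Cdkn2d, inhibitors of Cdk4 and Cdk6, were higher: Cdkn2c 11.1-fold and 5.76-fold, and Cdkn2d 13.3-fold and 6.83-fold in PTH and Control. Cdkn3, a phosphatase made in mitosis, was at 197 and 0.958 CPM in PTH and at 276 and 1.99 CPM in Control. Cdkn1b (p27) differed by less than 1.5-fold in both.

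Hypertrophy genes were mostly lower in cycling chondrocytes under the 4-gene rule. Under the G2 and M list rule 1 was lower in each library, and the log2 ratio of Col10a1 was 1.29 in PTH and 1.19 in Control. With the 4-gene rule 10 of 13 in the PTH library stood past 1.5-fold lower and 1 higher (median log2 ratio -1.23), and in the Control library 8 were lower and 2 higher (median -0.95). These shares lie above the 21.6% and 16.1% of all tested genes that were lower. Col10a1 was at 244 and 3006.9 CPM in cycling and other PTH chondrocytes, a ratio of 0.081 (0.0679 to 0.096), and at 79.5 and 2868.4 CPM in Control chondrocytes, 0.0277 (0.0216 to 0.0351). Ihh, the hedgehog ligand of cells about to enlarge, was at 77.6 and 286 CPM in PTH and at 33.4 and 162 CPM in Control. Alpl, the phosphatase of mineralizing matrix, had ratios of 0.304 (0.257 to 0.358) and 0.519 (0.46 to 0.584), and Mef2c, a transcription factor of hypertrophy, 0.501 and 0.396. Mmp13 had 24 UMIs in 3 of 20 cycling PTH cells and 0 UMIs in 30 Control cells.

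Cartilage identity stayed near level. Col2a1, which had set the lineage, was at 33335.4 and 33312.8 CPM in cycling and other PTH chondrocytes and at 28853.2 and 32599.8 CPM in Control. Of the other 14 cartilage matrix genes 1 was higher and 2 lower in PTH, and 1 higher and 1 lower in Control. Ucma was higher in the cycling cells, at 2816.2 and 1394.9 CPM in PTH and 2608.2 and 1735.3 CPM in Control. Cnmd, chondromodulin of avascular cartilage, had ratios of 1.39 and 1.29. Of the whole immature cartilage list 4 of 7 tested genes were higher and 1 lower in PTH, and 2 of 7 higher and 0 lower in Control. Over all tested genes 20.4% were higher and 21.6% lower in PTH, and 22.6% and 16.1% in Control.

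Globin RNA, which these cells do not make, was also lower in the cycling cells. Hbb-bs was at 132 and 2323.9 CPM in cycling and other PTH chondrocytes and at 599 and 10658.4 CPM in Control chondrocytes. The erythroid list as a whole summed to 208 and 3620.1 CPM in PTH and to 882 and 15912.4 CPM in Control, while cycling cells were deeper (median 28900.5 and 18047 UMIs in PTH, 29838.5 and 16978 in Control). The parts of free RNA and depth in the other differences were not tested. Aldoc, Aldh1a3, Klk8, Hpgd and Selenbp1 complete the 10 lowest, after Hbb-bt, Hbb-bs, Hba-a1, Col10a1 and Ibsp. Aldoc is a glycolytic aldolase, Aldh1a3 makes retinoic acid and Hpgd breaks down prostaglandins. Under the G2 and M list rule Col10a1, Ibsp, Aldoc, Aldh1a3, Klk8 and Hpgd stood above the other cells in both libraries, and Selenbp1 did so in PTH.

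Only chondrocytes had at least 20 cycling cells in 2 libraries, so their genes were compared between PTH (20 cells) and Control (30 cells). In PTH 8.56% of 3565 tested genes stood past 1.5-fold higher and 14.6% past 1.5-fold lower (median log2 ratio -0.12). Early response genes, which are switched on within minutes of a stimulus, were higher for 8 of 8 tested members (median 1.32). Fos was at 1828.7 CPM in PTH and 532 CPM in Control cycling cells, a ratio of 3.44 (3.07 to 3.84), with UMIs in 19 of 20 and 26 of 30 cells. Jun was at 892 and 288 CPM, and Egr1 at 570 and 220 CPM. The early response list also stood higher in other PTH chondrocytes, at 4505.8 CPM against 2980.5 CPM in Control, while in cycling cells it summed to 4616.0 and 1634.8 CPM.

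S phase genes were higher for 10 of 21 and lower for 0 (median 0.57), and G2 and M genes higher for 13 and lower for 1 of 47 (median 0.24). Rrm2 was at 291 CPM in PTH and 137 CPM in Control, 2.12-fold (1.66 to 2.71), and Top2a, which the rule used, at 996 and 576 CPM. The rule ties these levels to the cells it lets in.

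The genes farthest apart rested on a few cells. Ibsp, bone sialoprotein, was at 1325.0 CPM in PTH and 12.7 CPM in Control, 105-fold (58.1 to 210), but in 8 of 20 and 6 of 30 cells. Of its 734 UMIs in PTH, 327 came from a cell with 5 UMIs of the rule genes and 69 of Col10a1, which also carried 3 UMIs of the endothelial genes. Another 205 and 173 UMIs came from 2 cells that also held 173 and 183 UMIs of the tendon genes Tnmd and Kera. Kera was seen in these 2 cells alone and was at 166 CPM, against 0 UMIs in Control, at least 48.1-fold higher against a floor of 3 counts over the group. Thbs4, Abi3bp and Tnmd, further tendon matrix genes, were 14.8-fold, 9.79-fold and 8.68-fold higher, with 56 of 113, 85 of 175 and 133 of 288 UMIs from the top cell. The other chondrocytes of PTH also stood above those of Control for these genes. There Ibsp was 2.29-fold, Thbs4 3.92-fold, Abi3bp 2.03-fold and Tnmd 1.37-fold higher, and Kera was at 2.47 and 0.113 CPM.

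Lower in PTH by the same rule were Rgs5, Igfbp5, Pcp4, Hbb-bs and Acp5. Rgs5, a pericyte gene, had 1 UMI in PTH and 71 in Control, of which 63 came from a single cell with 5 UMIs of the rule genes and 109 of the pericyte and smooth muscle genes, and Igfbp5 had 6 and 132, of which 124 came from a single cell. Acp5, an osteoclast phosphatase, had 6 and 62 UMIs, of which 57 were in 1 cell that also held 59 Tyrobp UMIs. Single Control cells thus carry these 3 differences. In the other chondrocytes the PTH to Control ratio was 2.37 for Rgs5, 2.94 for Igfbp5, 0.931 for Acp5 and 0.393 for Pcp4. Hbb-bs was at 132 CPM in PTH and 599 CPM in Control, a ratio of 0.22 (0.17 to 0.281), and had the ratio 0.218 in the other chondrocytes.

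The Tyrobp lineage had the highest share over the 3 libraries together, although in Control the endothelial share was higher. It was 13 of 124 cells in the PTH library (10.5%, 5.7 to 17.3), 10 of 45 in the YKL library (22.2%, 11.2 to 37.1) and 38 of 658 in the Control library (5.78%, 4.12 to 7.84). The ratio of YKL to Control was 3.85 (1.71 to 7.87), of PTH to Control 1.82 (0.887 to 3.48) and of YKL to PTH 2.12 (0.832 to 5.23). YKL cells were deeper, with a median of 42667 UMIs in cycling Tyrobp cells against 13444.5 in Control. Cells were also thinned to 5000 or 2000 UMIs, with shallower cells left out and the rule set to 3 or 2 UMIs. Other Control Tyrobp cells had a median of 3638 UMIs, so most of them were left out at 5000. At 5000 UMIs the YKL to Control ratio was 2.07 (0.872 to 4.43), and at 2000 UMIs it was 2.62 (0.893 to 6.37). Without the single-gene members it was 3.95 (1.75 to 8.11).

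The kinds of dividing Tyrobp cells differed between libraries. In the Control library 21 of 38 held at least 3 UMIs of primary granule genes, a list of granule enzymes and other genes of young granulocyte precursors. Without them, 10 held at least 10 UMIs of the C1q genes of macrophages or of the osteoclast genes Ctsk and Acp5. In the PTH library 0 of 13 and in the YKL library 0 of 10 reached the granule limit. By the C1q or osteoclast limit they numbered 11 and 8. Few Tyrobp cells of any kind held 3 UMIs of primary granule genes there: 0 of 1 such cells was cycling in PTH (up to 97.5%) and 0 of 3 in YKL (up to 70.8%), against 21 of 55 in Control (38.2%, 25.4 to 52.3). The thresholds for these kinds were chosen after the values had been seen. Prtn3, proteinase 3 of primary granules, was at 396 and 12 CPM in cycling and other Control cells, with UMIs in 13 of 38 and 10 of 620. Elane, neutrophil elastase, was at 106 and 4.46 CPM and Ms4a3, a marker of granulocyte and monocyte precursors, at 106 and 6.18 CPM. Elane had 61 and 13 UMIs and Ms4a3 61 and 18, so both reached the minimum for a ratio only through the cycling cells.

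Many dividing Tyrobp cells of the PTH and YKL libraries carried osteoclast genes. Ctsk and Acp5, the collagen-cutting protease and the phosphatase of osteoclasts, summed to 10 or more UMIs in 10 of 13 cycling cells in PTH, 7 of 10 in YKL and 5 of 38 in Control. Of all Tyrobp cells with that many, 10 of 27 were cycling in PTH (37%, 19.4 to 57.6), 7 of 13 in YKL (53.8%, 25.1 to 80.8) and 5 of 28 in Control (17.9%, 6.06 to 36.9). The per-cell sum had a median of 31 UMIs in the PTH, 47.5 in the YKL and 0 in the Control cycling cells. Both this limit and the cycling rule are counts of UMIs, which deeper cells reach more easily. Median depths were 20098, 42667 and 13444.5 UMIs in cycling Tyrobp cells of PTH, YKL and Control. In the other Tyrobp cells they were 5093, 5892 and 3638, and the part of depth was not tested. The summed level was lower in dividing cells in PTH and YKL and higher in Control: Ctsk was at 4279.2 and 5967.3 CPM in cycling and other PTH cells, 2016.8 and 5974.5 CPM in YKL cells, and 752 and 364 CPM in Control cells. In YKL 400 of the 824 cycling UMIs of Ctsk were from 1 cell, and in Control 358 of 433.

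**Figure D3:**
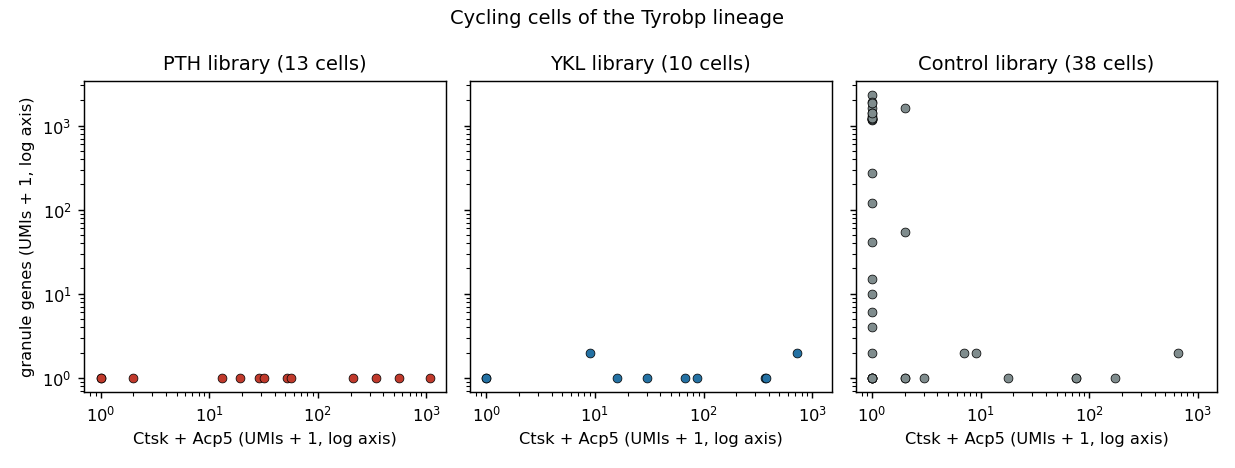
UMIs plus 1 of Ctsk and Acp5 (x axis) and of primary and secondary granule genes (y axis), both log axes, in each cycling Tyrobp cell of the PTH, YKL and Control libraries. Of the Control cells 21 of 38 hold at least 3 UMIs of primary granule genes, against 0 of 13 in PTH and 0 of 10 in YKL. Ctsk and Acp5 reach 10 UMIs in 10 of 13 PTH, 7 of 10 YKL and 5 of 38 Control cells.

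Cells rich in neutrophil genes filled most of the Control lineage. Cells with S100a8 and S100a9 at 1% of UMIs or more made up 16.1% of the lineage in PTH, 35.6% in YKL and 71.4% in Control, and 0 of 20, 0 of 16 and 17 of 470 of them were cycling. Among the rest 13 of 104 were cycling in PTH (12.5%, 6.83 to 20.4), 10 of 29 in YKL (34.5%, 17.9 to 54.3) and 21 of 188 in Control (11.2%, 7.05 to 16.6). This limit too was chosen after the values had been seen. The YKL interval lay above that of Control and overlapped that of PTH, at median depths of 6437.5, 16778 and 5934.5 UMIs.

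The genes named next were picked for standing higher in all 3 libraries, and the cells were chosen for the program they belong to. Hist1h1b, a linker histone of S phase, was at 460 and 3.4 CPM in cycling and other PTH cells, 490 and 0 CPM in YKL cells and 636 and 3.43 CPM in Control cells. Hist1h2ap, Ccna2, Pclaf, Ube2c, Cdca8, Hist1h2ae, Cdk1, Cks1b and Smc2 were the other 9 highest. Of tested S phase genes 8 of 8 in PTH, 11 of 11 in YKL and 14 of 14 in Control were higher, and of G2 and M genes 17 of 17, 14 of 15 and 30 of 31. Over all genes 23.3% were higher and 21.5% lower of 3053 in PTH, 32.5% and 19.7% of 2371 in YKL, and 37.4% and 24% of 5282 in Control. As in chondrocytes, nothing is read from these counts.

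Of the 10 lowest genes, Retnlg, Il1b and Csf3r belong to the mature neutrophil list. Retnlg, a secreted neutrophil protein, was at 0 and 1110.1 CPM in cycling and other PTH cells, 0 and 961 CPM in YKL cells and 1099.9 and 16707.3 CPM in Control cells. Il1b, the inflammatory cytokine, was at 0 and 750 CPM, 51.4 and 972 CPM, and 217 and 1627.9 CPM. Csf3r, the receptor for the neutrophil growth factor, was at 0 and 63.4 CPM, 2.45 and 119 CPM, and 33 and 208 CPM. G0s2, Ypel3, Ccl3, Ifitm6, Mxd1, Slc7a11 and Ccl4 were the others. Mature neutrophil genes were lower for 6 of 6, 5 of 5 and 6 of 7 tested members in PTH, YKL and Control. Of these members, 4 in PTH and 3 in YKL had 0 UMIs in cycling cells. Those members reached the minimum for a ratio only through the other cells, so nothing is read from the PTH and YKL counts. In all 3 libraries the other cells include mature neutrophils, whose part in these counts was not tested. Erythroid genes summed to 583 and 14660.0 CPM in cycling and other PTH cells, 627 and 830 CPM in YKL cells, and 21240.4 and 75276.9 CPM in Control cells, and their part was not tested. Among Control cells of at least 10000 UMIs, Ccl3, Mxd1 and Ccl4 stood above the other cells instead.

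Macrophage genes went different ways. C1qa, a complement subunit of tissue macrophages, was at 278 and 1917.7 CPM in cycling and other PTH cells, 467 and 124 CPM in YKL cells, and 758 and 635 CPM in Control cells. The 467 CPM in YKL came from 3 of 10 cells, with 147 of 191 UMIs in 1 of them. H2-Aa, a class II antigen presentation gene, was at 573 and 1381.9 CPM in PTH, 972 and 55 CPM in YKL and 737 and 836 CPM in Control. It was seen in 3 of 10 cycling YKL cells.

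Col1a1 cells divided mainly in the PTH library. There 30 of 625 were cycling (4.8%, 3.26 to 6.78), against 1 of 37 in the YKL library (2.7%, 0.0684 to 14.2) and 3 of 228 in the Control library (1.32%, 0.272 to 3.8). The PTH to Control ratio was 3.65 (1.13 to 18.7), and without the single-gene members 3.53 (1.09 to 18.1). Its interval reached 1 in 5 of 17 alternatives. The ratio was 3.04 with 10 UMIs as the limit, 2.19 with 5 UMIs per 10000, and 3.12 with the Col2a1 limit at 0.5%. After thinning to 5000 and 2000 UMIs, again with shallower cells left out, it was 2.57 and 2.6. With 3 cycling cells in Control, few cells stand behind this ratio.

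The 30 cycling PTH cells were a mixture. Tnmd and Kera, genes of tendon cells, summed to at least 10 UMIs in 14 of them and in 34.8% of the 595 other Col1a1 cells of the library. Pericyte and smooth muscle genes reached 20 UMIs in 7 (5.21% of others), bone genes reached 20 UMIs in 6 (8.4%) and Schwann cell genes 10 UMIs in 1 (2.18%). Pi16, a marker of resting fibroblast progenitors, reached 3 UMIs in 5 of 30 and in 45.5% of the others. At least 50 UMIs of fibroblast genes were held by 29 of the 30 cells and by 93.3% of the others. Of all cells with that much Pi16, 5 of 276 were cycling (1.81%, 0.591 to 4.18), and of those with tendon genes 14 of 221 (6.33%, 3.51 to 10.4). The limits for these kinds were set after the values had been seen.

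By gene, Pi16 was at 114 and 1155.5 CPM in cycling and other cells, a ratio of 0.0985 (0.0787 to 0.122). Sfrp4, a secreted WNT antagonist, C3, the central complement component, Mmp3, a matrix protease, Abca8a, Penk and Ifit1 were also among the 10 lowest, with ratios of 0.0515, 0.0348, 0.0345 and 0.0483 for the first 4 and 0 UMIs in cycling cells for Penk and Ifit1. Hba-a1, Hbb-bs and Hbb-bt complete them, as in chondrocytes (erythroid list 253 and 4649.8 CPM). Igfbp5, which binds insulin-like growth factors, was at 540 and 3047.4 CPM, and Igf1 itself at 507 and 1279.2 CPM. These 2 are of the list of growth ligands, in which 6 of 11 were lower and 1 higher, where 18.4% of 9595 tested genes were lower and 17.9% higher.

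Of the fibroblast list 6 of 10 genes were lower and 0 higher, the lower ones including Lum (957 and 1680.9 CPM) and Postn (1285.6 and 2210.0 CPM). Prrx1, the limb mesenchyme factor, was near level at 342 and 280 CPM. Tendon genes were near level too, with 1 of 6 lower and 0 higher: Tnmd was at 1669.5 and 1770.5 CPM. Pericyte genes were higher for 5 of 8, with Rgs5 at 254 and 47.9 CPM, although 3 of 30 cells held its UMIs, and Acta2, smooth muscle actin, at 802 and 195 CPM in 21 cells. Schwann genes were higher for 4 of 5, and 1 of the 30 cells held at least 10 UMIs of the list.

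Prc1 led the higher genes, at 516 and 0.881 CPM, a ratio of 586 (282 to 1468.0). Ube2c, which marks mitotic proteins for destruction, was at 888 and 2.14 CPM. Ccnb1, Hmmr, Nusap1, Tpx2, Pimreg, Kif4, Pbk and Kif2c were the other 8, all of mitosis. Of tested G2 and M genes 42 of 43 and of S phase genes 17 of 20 were higher. The rule chose the cells for this program, so nothing is read from these counts. Cdkn1c was lower here as well, at 88.7 and 226 CPM (0.393, 0.303 to 0.502), whereas Cdkn1a was higher, at 195 and 113 CPM (1.72, 1.43 to 2.04), with UMIs in 21 of 30 cells.

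The dividing shares of endothelial cells did not separate between libraries. They were 17 of 306 in the PTH library (5.56%, 3.27 to 8.75), 5 of 54 in the YKL library (9.26%, 3.08 to 20.3) and 14 of 176 in the Control library (7.95%, 4.42 to 13). The ratios were 0.698 (0.324 to 1.53) for PTH to Control, 1.16 (0.328 to 3.42) for YKL to Control and 1.67 (0.481 to 4.71) for YKL to PTH. These intervals allow differences of more than 1.5-fold in either direction.

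Arterial and venous genes were lower in dividing vessel cells of the PTH library and went both ways in Control. Ackr1, the chemokine receptor of venules, was at 5.05 and 139 CPM in cycling and other PTH cells and at 4.77 and 169 CPM in Control cells, with 1 UMI in each. Selp, P-selectin of venules, was at 40.4 and 133 CPM and at 23.8 and 149 CPM. Vwf, von Willebrand factor, was at 75.7 and 165 CPM in PTH and at 0 and 177 CPM in Control. All 8 arterial and venous genes were past 1.5-fold lower in PTH, and 4 were lower and 2 higher in Control. Over all genes 13.1% were higher and 22% lower of 6484 in PTH, and 16.9% and 13.2% of 4092 in Control. Gja4, an arterial connexin, differed between libraries, at 30.3 and 231 CPM in PTH and 296 and 196 CPM in Control.

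Of 10 general endothelial genes 3 were lower in each library, with 0 higher in PTH and 1 in Control. Kdr, the main receptor for VEGF, was at 555 and 500 CPM in PTH and 377 and 474 CPM in Control, and Egfl7 at 1767.0 and 2095.0 CPM and 1778.0 and 1981.4 CPM. Fabp4 and Cd36, which carry fatty acids, were lower: Fabp4 at 4584.1 and 9671.4 CPM and 4914.4 and 11429.6 CPM, and Cd36 at 328 and 787 CPM and 148 and 651 CPM. Stc1, Ier3, Slfn5, Hbb-bt, Hbb-bs and Hba-a1 were also among the 10 lowest, as was Ackr1. Cdkn1a was higher in cycling endothelial cells, at 227 and 97.5 CPM in PTH (2.33, 1.65 to 3.22) and 129 and 48.7 CPM in Control (2.64, 1.6 to 4.25). In chondrocytes it was lower, but the difference between lineages was not tested, and 28 of the 45 PTH UMIs were from 1 cell.

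Hist1h2ae, Hist1h1b, Prc1, Ccnb2, Pclaf, Cenpa, Stmn1, Cks2, Cks1b and Hmgb2 led the higher genes of endothelial cells. Stmn1, which destabilizes microtubules, was at 798 and 64.4 CPM in PTH and 1277.5 and 71.4 CPM in Control and was detected in all 17 and all 14 cycling cells. Of tested S phase genes 11 of 16 in PTH and 8 of 10 in Control were higher, and of G2 and M genes 17 of 19 and 17 of 17. Nothing is read from these counts, because the rule chose the cells for this program. Genes of other cell types also stood higher through single cells: Dcn, a fibroblast proteoglycan, had 371 of its 377 PTH UMIs in 1 cell, Cd74, an antigen presentation gene, 84 of 85, and Rgs5 88 of its 189 Control UMIs in 1 cell. In Control all 9 tested cartilage matrix genes were higher, with sums of 2697.9 and 568 CPM in cycling and other endothelial cells, and 1 cycling cell held 193 of the 224 Col2a1 UMIs. Globins were lower, with erythroid sums of 2403.1 and 11545.8 CPM in PTH and 6625.6 and 76066.1 CPM in Control.

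Most members had more UMIs of G2 and M genes than of S phase genes. More S than G2 and M UMIs were found in 10 of 81 cells in the PTH, 4 of 22 in the YKL and 13 of 94 in the Control library. The S share of both lists had medians of 15.6%, 23.9% and 15.4%. By lineage the share ran lowest in Col1a1 cells of the PTH library (8.61%, from 0 to 61.6) and highest, among lineages with at least 10 cycling cells in a library, in Tyrobp cells of the YKL library (34.4%, from 15.6 to 64.6). The second had 4 of its 10 cells on the S side. Chondrocytes were at 22.2% in PTH and 11.3% in Control, with ranges of 4.42 to 69.5% and 4.87 to 64.3%, which overlap. These shares describe UMIs and not measured phases, and the part of free RNA and depth in them was not tested.

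**Figure D4:**
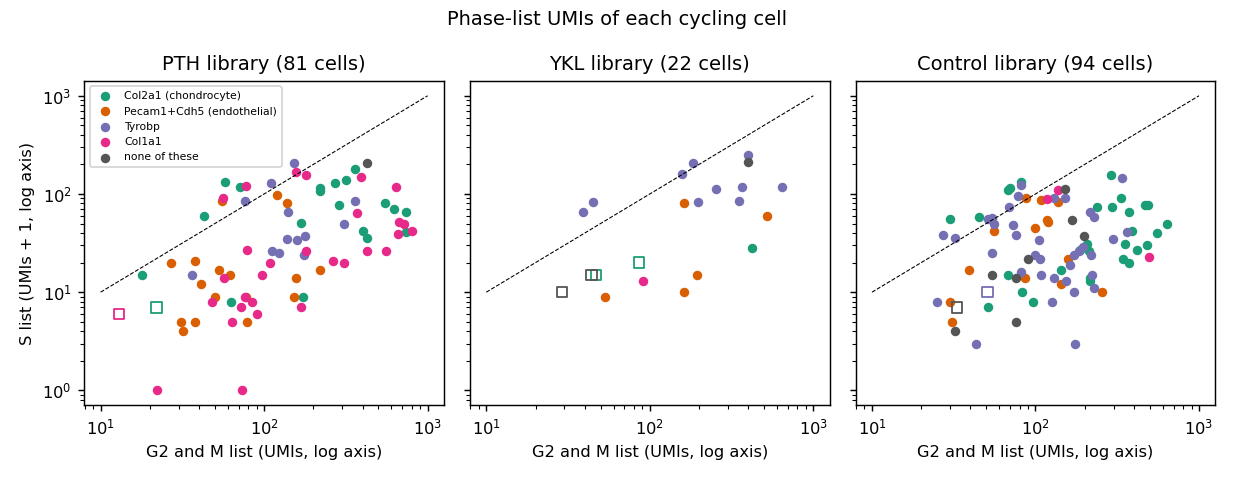
UMIs of the G2 and M list (x axis) and UMIs plus 1 of the S list (y axis), both log axes, in each cycling cell of the PTH, YKL and Control libraries; color gives the lineage, open squares are members with UMIs of only 1 of the 4 genes, and the dashed line marks equal values. Most cells lie below the line, and 4 of the 22 YKL cells have more S UMIs.

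The lineages were last set side by side. Genes tested in every library of a lineage and past 1 in the same direction by the interval numbered 915 higher and 502 lower of 9565 in chondrocytes, 190 and 112 of 4066 in endothelial cells, and 458 and 193 of 2263 in Tyrobp cells. The counts higher and lower leave out mitochondrial, ribosomal protein, predicted, rule and lineage genes, while the totals include them. Mitotic kinases and spindle motors summed to 2373.9 CPM in cycling and 11.3 CPM in other PTH chondrocytes and 1086.7 and 41.3 CPM in YKL Tyrobp cells. Nucleotide synthesis was at 1023.1 and 39 CPM in YKL Tyrobp cells and 560 and 123 CPM in PTH endothelial cells. CDK inhibitors summed to 1133.7 and 1346.5 CPM in PTH chondrocytes and 631 and 297 CPM in PTH endothelial cells.

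**Figure D5:**
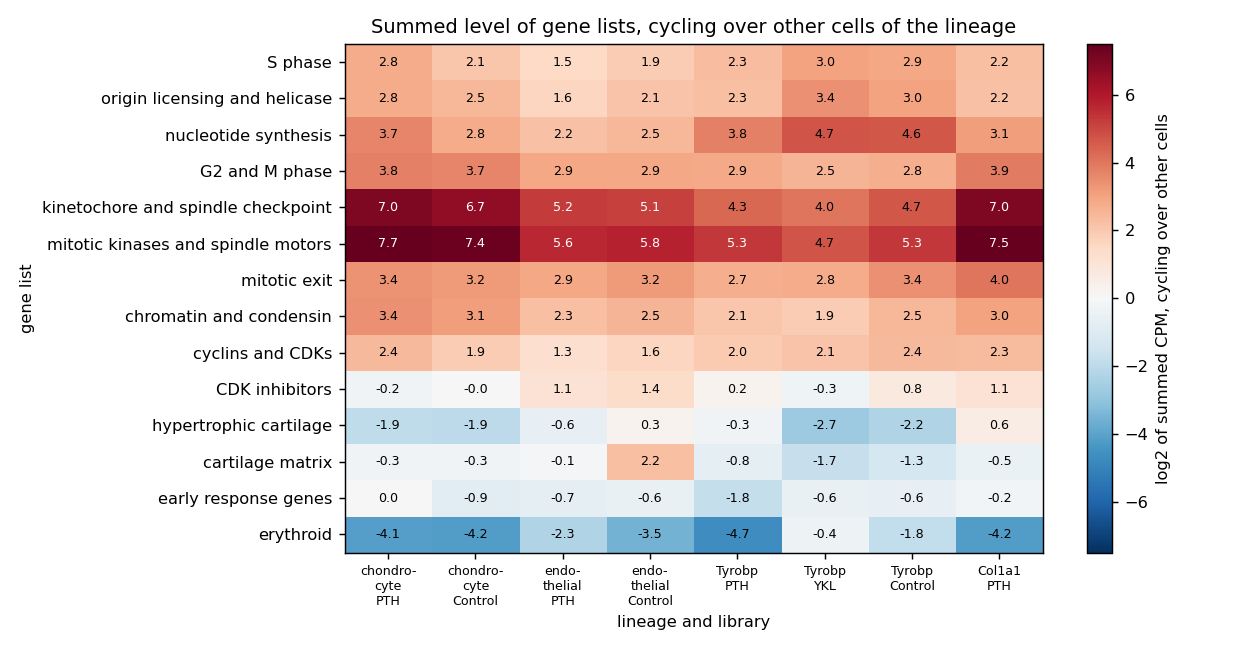
Log2 ratio of summed CPM in cycling over other cells of a lineage (color and printed value) for 14 gene lists (y axis) in each lineage and library with at least 10 cycling cells (x axis). The 9 lists of cell cycle steps, from S phase to cyclins and CDKs, are positive in every column, and the erythroid list is negative in every column.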

How the data were processed

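Single-cell libraries (10x 3′ v3) were made from callus, 1 per group. The deposited values are raw counts of UMIs, produced by the authors using Cell Ranger (4.0.0 in the file headers). The submitters' processing notes name mm10 and Seurat; no cell filter of theirs is given in the sources at hand. Counts were summed over the cells of a lineage and scaled to CPM. Gene ratios needed 50 UMIs over both sums and 10 cycling cells (20 in both libraries for PTH over Control), were called past 1.5-fold and have exact conditional binomial 95% intervals; shares have exact Clopper-Pearson intervals. A gene at 0 was set to a floor of 3 counts.

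Genes named are the 10 highest and 10 lowest per lineage by the bound nearest to 1 in every library, 5 and 5 between libraries (at least 50 CPM in 1), and up to 8 members per list with most UMIs, leaving out mitochondrial, ribosomal protein, predicted, rule and lineage genes; Ihh was added after its values were seen, and some genes the rule names are not reported here. Cells, rules and the 35 lists were chosen with earlier results of these data known. No doublet caller was run. The computation (Python 3.11.15, scipy 1.17.1) was tested on simulated data, in which unchanged genes also passed 1.5-fold, so a share past that fold is not a share of changed genes. The settings tried are given at the end.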

Additional observations from a re-analysis of the deposited data

How the results depend on the processing

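No paired analysis was possible because each group is 1 library. Of 255 share ratios under alternative settings, 251 stayed within the interval of the reported ratio. The other 4 came with a rule of at least 15 UMIs of the G2 and M list, which 508 of 1913 PTH, 382 of 606 YKL and 675 of 2944 Control cells met: YKL over Control 2.75 and YKL over PTH 2.37 for all cells, and in chondrocytes 2.47 and 1.91, the last turned round. YKL cells were also deeper, and the part of depth was not tested. Under it 17 and 19 S list genes were higher in PTH and Control chondrocytes, 1 and 1 hypertrophy genes lower, and log2 ratios turned positive in PTH (Col10a1 1.29, Ibsp 0.40, Aldoc 0.90, Aldh1a3 1.18, Klk8 1.07, Hpgd 0.19, Selenbp1 0.46) and Control (Col10a1 1.19, Ibsp 0.29, Aldoc 0.46, Aldh1a3 1.90, Klk8 0.49, Hpgd 0.36).

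Of 244 counts of list genes 219 stayed within 1.5-fold. With at most 5% mitochondrial UMIs, higher S and G2 and M genes numbered 2 and 9 in PTH endothelial cells, 0 and 7 in Control endothelial cells, and 0 S genes in PTH Tyrobp cells. With cells of at least 10000 UMIs they numbered 7 and 11 in PTH and 0 and 9 in Control endothelial cells, and Ccl3 (1.67), Mxd1 (0.34) and Ccl4 (2.15) turned positive in Control Tyrobp cells. With genes of 20 UMIs they numbered 21 and 30 and 17 and 28 in endothelial cells of PTH and Control, 18 and 31 and 21 and 30 in Tyrobp cells of PTH and YKL, and the S genes 36 in Control Tyrobp and 34 in PTH Col1a1 cells; between PTH and Control chondrocytes 794 of 6370 genes were higher and 1117 lower. These last follow from fewer cells or more genes tested. Of 2005 gene ratios 1969 kept direction and side, and 48 of 48 between libraries. Requiring UMIs of at least 2 of the 4 genes was added after seeing the data.

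Counting error limits the share ratios: 3 of 18 had an interval that left out 1. Some that took in 1 depended on the settings. For PTH to Control, 4 of 17 alternatives left out 1 in all cells and 4 in Tyrobp cells. For YKL to Control in chondrocytes 3 of 17 did.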

Other observations

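Of the 13 cycling cells outside the 4 lineages, 1 was in the PTH library, 3 in the YKL library and 9 in the Control library. Among the Control cells 4 held at least 20 UMIs of pericyte and smooth muscle genes (from 37 to 489), out of 67 such cells outside the lineages in that library (5.97%, 1.65 to 14.6). The cell with 37 met the cycling rule through Cenpf alone (7 UMIs). Another held 84 UMIs of Schwann cell genes. A further Control cell had 78% of its UMIs in globin genes and carried 4 UMIs of Klf1, a transcription factor of red cell precursors.

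The single PTH cell held 214 UMIs of Mmp9, a protease abundant in osteoclasts, beside 796 UMIs of the bone matrix gene Ibsp, among 99212 UMIs in all, the highest depth of any cycling cell. A YKL cell held 263 Mmp9 UMIs among 55468. Neither reached 3 UMIs of Tyrobp, so the class of dividing Tyrobp cells leaves both out. The other YKL cells met the cycling rule through Birc5 alone (5 UMIs) and through Cenpf alone (26 UMIs, beside 351 of Col10a1).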
